A study of Mus musculus with 10 samples.

Results

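The machinery that brings proteins into mitochondria, folds them there and degrades them was represented by 90 probe sets for 42 genes, of 45101 probe sets on the array. Members were the probe sets that name exactly 1 gene, either with a symbol starting in Timm or Tomm or out of a set of matrix chaperones, chaperone cofactors, peptidases, proteases and prohibitins. The rule reads names alone, but it was set with earlier results of these data known. RNA came from gastrocnemius muscle of 5 D257A mice (2-17M, 2-21M, 2-25M, 2-27M and 2-30M) and 5 WT mice (1-12M, 1-13M, 2-3M, 2-32M and 3-18M), with 1 Affymetrix Mouse Genome array per mouse. All mice were male and 13 months old. D257A mice are PolgD257A/D257A, homozygous in the germline and so in every tissue for a mitochondrial DNA polymerase whose proofreading domain carries a substitution, while WT mice are Polg+/+. The array does not read that substitution, so it cannot check the genotype. Per the study's methods the allele was made on a mixed background and crossed repeatedly to C57Bl/6J.

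Most mitochondrial proteins are made in the cytosol and enter through the TOM complex of the outer membrane, from where they are passed to the SAM complex, to small Tim chaperones and TIM22, or to TIM23 and its ATP-driven motor. In the matrix the presequence is cut off, the chaperonin of Hspd1 and Hspe1 helps the protein fold, and proteases such as Lonp1 and the Clpp-Clpx pair remove damaged chains. When unfolded chains build up in the matrix, cells can raise the transcripts of these chaperones and proteases, a program called the mitochondrial unfolded protein response. In mammalian cells it has been tied to the transcription factors CHOP (Ddit3), Atf4 and Atf5, and in muscle with faulty mitochondria Atf4 target genes are often high.

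Because Hspd1 and Hspe1 lie head to head on chromosome 1 and share 1 promoter, and because Pmpcb and Timm9 held called probe sets, the promoter windows of Hspe1 (chr1:55087898-55088197, plus strand), Pmpcb (chr5:21736910-21737209, plus strand) and Timm9 (chr12:71136626-71136925, minus strand) are shown. They run from 250 bases before to 50 after the annotated start, come from RefSeq (GRCm38.p6) and were found for 35 of the 42 genes, as 38 windows. Capitals mark matches, on either strand, to TGCAAT (the short core that C/EBP factors and CHOP bind), to CCGGAAG (the core bound by GABP and other ETS factors) and to GAANNTTC (an inverted repeat of heat shock elements); in Hspe1 an ETS match on each strand and the heat shock repeat overlap in a single run.
Hspe1: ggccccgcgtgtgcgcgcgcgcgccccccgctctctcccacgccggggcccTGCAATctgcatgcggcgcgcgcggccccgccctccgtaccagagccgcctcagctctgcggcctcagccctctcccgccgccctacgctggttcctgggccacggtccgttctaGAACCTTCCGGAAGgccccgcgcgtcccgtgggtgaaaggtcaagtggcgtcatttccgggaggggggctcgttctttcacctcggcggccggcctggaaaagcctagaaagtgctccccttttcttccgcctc
Pmpcb: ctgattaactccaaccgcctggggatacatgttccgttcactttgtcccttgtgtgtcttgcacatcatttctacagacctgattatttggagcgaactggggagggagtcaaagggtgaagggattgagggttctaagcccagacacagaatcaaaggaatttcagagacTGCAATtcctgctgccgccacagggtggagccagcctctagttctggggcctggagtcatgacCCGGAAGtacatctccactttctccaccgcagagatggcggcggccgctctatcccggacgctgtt
Timm9: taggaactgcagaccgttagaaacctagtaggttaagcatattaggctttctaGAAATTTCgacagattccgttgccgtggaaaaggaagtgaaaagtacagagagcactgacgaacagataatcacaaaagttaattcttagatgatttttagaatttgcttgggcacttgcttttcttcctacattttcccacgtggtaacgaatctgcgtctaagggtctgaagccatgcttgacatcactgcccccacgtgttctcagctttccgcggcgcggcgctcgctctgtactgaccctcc

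The Hspe1 window shares 285 bases with a window of Hspd1 on the minus strand (chr1:55087883-55088182). All matches marked in Hspe1 lie in these shared bases, so each is counted in both windows. Counting them in both raises the member shares given below for those letters. CCGGAAG was found in 19 of 38 member windows (50%), against 27 of 90 windows of respiratory chain and ATP synthase genes, assembly factors included (30%), 25 of 73 of mitochondrial ribosomal proteins (34.2%), 16.8% of the 11751 windows of all tested genes and 8.86% of all 32851 windows. Members as different in their values as Pmpca, Pmpcb, Clpp, Phb2 and Timmdc1 held it. TGCAAT was in 4 member windows (10.5%, against 5.33% for tested genes and 8.40% for all windows), which belong to Hspd1, Hspe1, Pmpcb and Timm17b. GAANNTTC was in 3 (7.89%, against 5.63% and 7.86%), those of Hspd1, Hspe1 and Timm9. TGATGNAAT, the composite element of Atf4 and CHOP, and the palindrome bound by NRF1 were in 0 of 38, against 0.417% and 2.06% of the windows of tested genes. Such matches describe letters in these windows and are not evidence of binding.

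Values are signals on a linear scale, made comparable by multiplying each array so that its trimmed mean is 500, and fold changes are differences of mean log2 signals, D257A minus WT. Per-mouse values follow the order in which the mice are listed above. The deposited trimmed means were 93.4 to 106 in D257A mice and 94.5 to 129 in WT mice, and the scaled arrays had a median log2 of 6.36 ± 0.062 (D257A) and 6.49 ± 0.054 (WT), as means with SD over 5 mice of each genotype (two-sided exact permutation p = 0.0238). Probe sets with a mean log2 signal above 6.26 were tested, which kept 81 of the 90 member probe sets and 40 of the 42 genes. Timm8a2 and Tomm20l, paralogs of Timm8a1 and Tomm20, were below it and have no test. Timm8a2 had signals of 26.3, 1.66, 18.5, 18.5 and 1.39 in D257A mice, against 8.64, 2.85, 10.3, 22.7 and 48.7 in WT mice. Tomm20l had signals of 5.23, 128, 6.5, 12.2 and 65.2 in D257A mice, against 52.3, 7.53, 23.7, 49.3 and 33 in WT mice. At this brightness single mice of 1 genotype differed by at least 6.95-fold between the lowest and the highest and the groups overlapped. Among WT mice 1-13M was unlike the rest, with an array weight (limma's estimate of how closely an array follows its group) of 0.283 where the other 9 mice had 0.555 to 1.73, so gene values and list medians are also given without it where their sign or call changes or they move by over 1.5 times. Without it the fold change of 4 of the 40 tested genes turned its sign and that of 16 others moved by that much. All 12 markers of muscle fibres were above the filter, with 1 called lower, and of 7 cochlea markers, tested because a protocol line of the labels names that organ, 4 (Otos, Tecta, Otoa and Slc26a5) were at or under the filter and 0 were called. Of 8 macrophage markers, 4 were higher in D257A mice, with a summed signal of 7579 to 11699 there and 6361 to 7617 in WT mice. Of 7 fibroblast markers, 3 were lower, at 22278 to 26265 in D257A mice and 22149 to 37643 in WT mice. Over all genes 3.71% were called higher and 3.52% lower. What part such cells have in the values below was not tested. These arrays cannot tell fewer fibres apart from less RNA per fibre. The paper counted fibres of gastrocnemius at 13 months and reports no significant difference in number between the genotypes.

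Few of these genes were found to differ between D257A and WT muscle beyond the spread of the mice. Of the 40 genes tested, each read by its brightest probe set, 0 rose, 1 fell (Pmpcb) and 39 did not pass an adjusted p of 0.05 (limma, Benjamini-Hochberg over all 22518 probe sets tested). Over all 11215 genes the same rule called 3.71% higher and 3.52% lower, or 7.23% in both directions, beside 1 of 40, or 2.5%, of the members. Whether these shares differ was not tested. At an unadjusted p under 0.05, 2 members were higher and 7 lower, against 11.1% and 11.7% of all genes, and the methods' t-test called 1 higher (Pam16) and 1 lower (Hspd1). The share of all genes called by that last test is not given here, so its calls among members have no such comparison. The median log2 fold change of the members was -0.11, where that of all genes was -0.0098, and 26 of 40 values were negative. The median of the members was -0.063 without WT mouse 1-13M. All fold changes lay between -0.56 and 0.34. Read as single probe sets, 1 rose and 2 fell of 81 (3.70%, against 7.38% of all probe sets, 3.64% higher and 3.74% lower), and 55 of 81 values were negative.

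The sign of a shift of this size depends on the scaling. The median log2 signal of whole arrays differed by -0.13 between D257A and WT mice, so centring each array on its median raises every fold change by that amount and turns the sign of each negative value or list median below it in size. The median of all genes was then 0.12 and that of the members 0.025. The distance of the members' median from that of all genes was -0.099 under both scalings, -0.048 without WT mouse 1-13M and -0.13 among the brightest probe sets alone. Mouse by mouse, the median over the 40 genes relative to the WT mean was -0.13 to -0.050 in D257A mice and -0.010 to 0.037 in WT mice, each WT mouse being part of that mean. Relative to the mean of the 4 WT mice other than 1-13M it was -0.099 to -0.027 in D257A mice and -0.031 to 0.035 in WT mice, and the genotypes overlapped. WT mouse 1-13M was the lowest WT mouse for 16 of the 40 genes and the highest for 14, and 3-18M was lowest for 15 and highest for 10, so these mice widen the WT spread of many members in both directions. Among D257A mice, 2-30M was lowest for 16 genes.

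**Figure D1:**
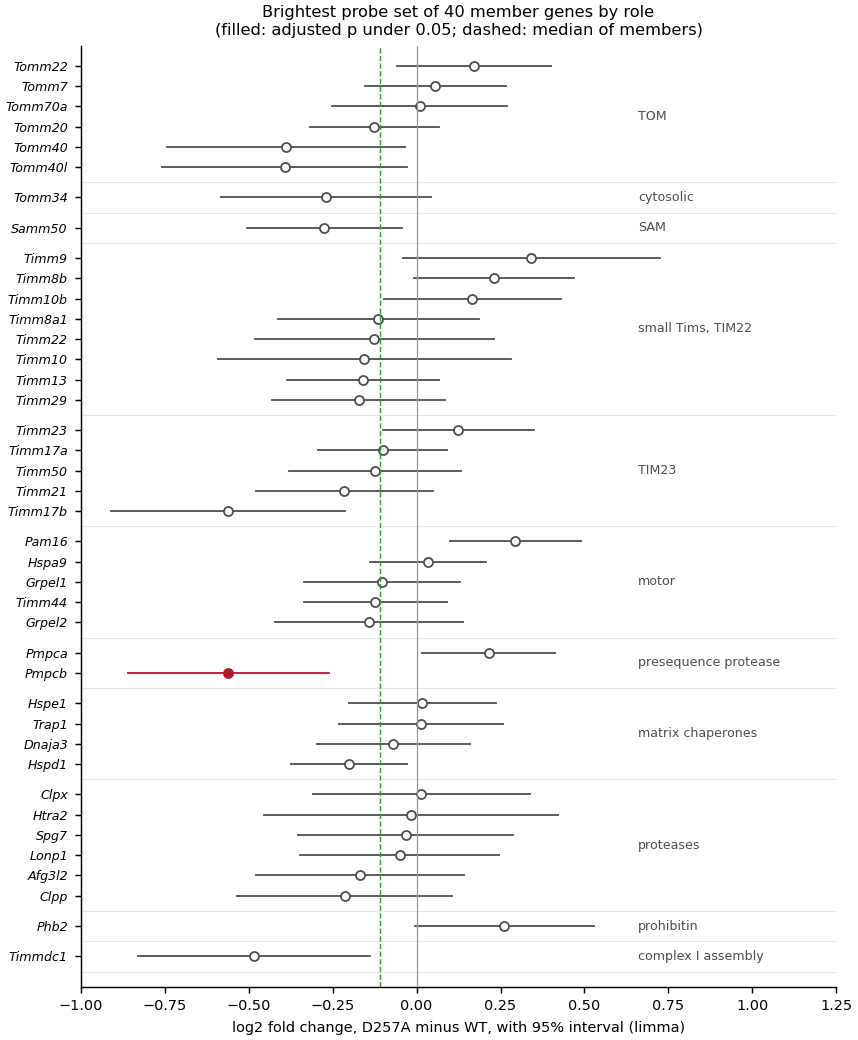
Log2 fold change, D257A minus WT, of the brightest probe set of the 40 tested genes (points) with limma's 95% interval (lines), grouped by role from the outer membrane at the top to the matrix and the inner membrane at the bottom; the dashed line is the median of the members, -0.11. The filled point is Pmpcb at -0.56, and its partner Pmpca lies above it at 0.22.

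The 8 genes that are read most often for the mitochondrial unfolded protein response (Hspd1, Hspe1, Hspa9, Dnaja3, Trap1, Lonp1, Clpp and Clpx) were not among the genes that rose. By limma 0 of 8 were called, with 1 (Hspd1, lower) at an unadjusted p under 0.05, and the methods' t-test called Hspd1 lower. Their log2 fold changes ran from -0.21 to 0.035 with a median of -0.018, which turned to 0.029 without WT mouse 1-13M. Hspd1, the large subunit of the matrix chaperonin, had signals of 7502, 7079, 6719, 6774 and 7502 in D257A mice, against 8467, 8401, 8201, 7754 and 8062 in WT mice. Every D257A mouse was below every WT mouse, which held for 3.47% of all genes in that direction, and the fold change was -0.20 (standard error 0.08, 95% interval -0.37 to -0.03, limma adjusted p = 0.144). By the methods' t-test the adjusted p of Hspd1 was 0.0356 on log2 and 0.0343 on linear signals, and its fold change was negative under every alternative, from -0.28 to -0.068. Hspe1, the lid of the same chaperonin, had signals of 8444, 7475, 7794, 6298 and 6746 in D257A mice, against 6792, 7427, 7204, 6630.1 and 8175 in WT mice. Its groups overlapped, and the fold change was 0.017 (standard error 0.10, 95% interval -0.20 to 0.24, limma adjusted p = 0.942), or 0.027 without WT mouse 1-13M. A dimmer probe set of Hspe1 gave -0.13 (95% interval -0.40 to 0.14, limma adjusted p = 0.583), or -0.066 without that mouse. On their brightest probe sets the genes of the shared promoter window gave intervals of -0.37 to -0.030 and -0.20 to 0.24. Whether these genes differ from each other was not tested.

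The other matrix chaperones did not pass the test. Dnaja3, a J protein that works with mitochondrial Hsp70, had signals of 3594, 3942, 3577, 3733 and 3509 in D257A mice, against 3489, 3236, 4328, 4256 and 4055 in WT mice. Trap1, the Hsp90 of mitochondria, had 4454, 4167, 3771, 3905 and 3507 in D257A mice, against 3992, 4330.1, 3973, 4293 and 3102 in WT mice. For both genes the groups overlapped, with fold changes of -0.069 (limma adjusted p = 0.744) and 0.014 (limma adjusted p = 0.959), or -0.13 and 0.05 without WT mouse 1-13M. Dimmer probe sets gave -0.051 for Dnaja3 (limma adjusted p = 0.905) and -0.082 for Trap1 (limma adjusted p = 0.728). Without that mouse these were 0.0097 and -0.044. WT mouse 3-18M was the lowest of all 10 mice for Trap1. The intervals, -0.30 to 0.16 for Dnaja3 and -0.23 to 0.26 for Trap1, bound the change in either direction at this number of mice.

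The proteases of the matrix did not pass either. Lonp1, an ATP-dependent protease that degrades oxidized proteins, had signals of 1487, 1676, 1345, 1362 and 1313 in D257A mice, against 1399, 1857, 1575, 1540.2 and 1133 in WT mice. Clpp, the proteolytic chamber of the Clp protease, had 1774, 1804, 1664, 1736 and 1806 in D257A mice, against 1986, 2973, 1972, 1976 and 1526 in WT mice. Clpx, the unfoldase that feeds it, had 5209, 4576, 6023, 4728 and 6503 in D257A mice, against 5027, 7391, 4299, 4543 and 5781 in WT mice. In each of these genes WT mouse 1-13M was the highest WT mouse, above the other 9 mice for Lonp1, Clpp and Clpx alike. Clpp was within 1664 to 1806 in all D257A mice, a narrower range than the 1526 to 2973 of WT mice, and its fold change of -0.21 (standard error 0.15, 95% interval -0.53 to 0.11, limma adjusted p = 0.414) moved to -0.078 without WT mouse 1-13M. Lonp1 changed by -0.05 (limma adjusted p = 0.863) and Clpx by 0.015 (limma adjusted p = 0.967). Lonp1 was 0.031 and Clpx 0.13 without that mouse. Dimmer probe sets gave -0.13 for Clpp (limma adjusted p = 0.604) and 0.26 for Clpx (limma adjusted p = 0.439). Without WT mouse 1-13M these were -0.013 and 0.39. Afg3l2 and Spg7, the subunits of the m-AAA protease of the inner membrane, had fold changes of -0.17 and -0.032, and Htra2, a protease of the intermembrane space, -0.016. Afg3l2 was -0.061, Spg7 -0.021 and Htra2 0.016 without WT mouse 1-13M. Of these 6 proteases 0 were called by limma, 0 passed at an unadjusted p under 0.05, and 0 were called by the methods' t-test.

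**Figure D2:**
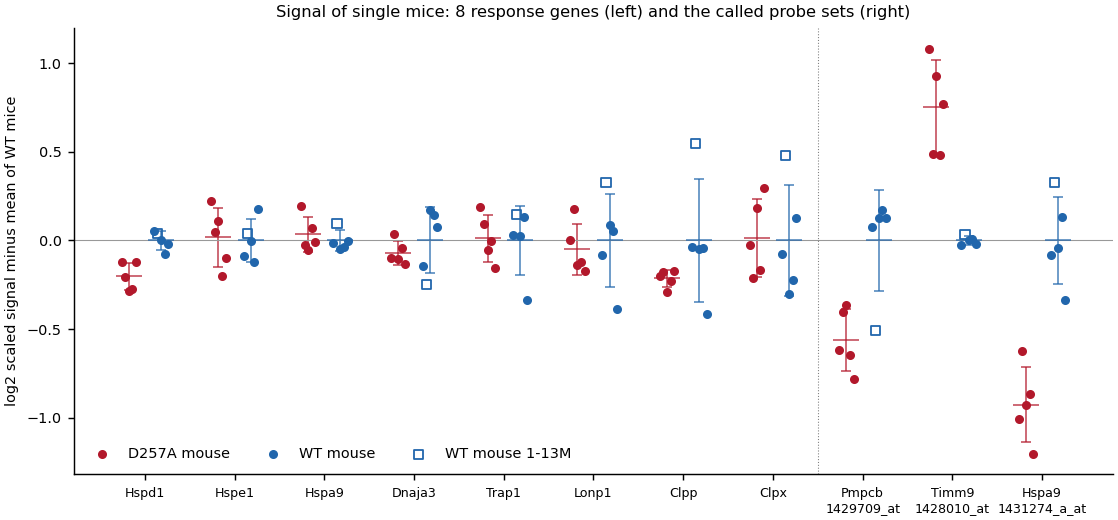
Log2 scaled signal of each mouse minus the mean of WT mice, for the brightest probe set of 8 response genes and, right of the dotted line, for the 3 called probe sets; points are mice (D257A left, WT right of each pair), bars the mean and SD over 5 mice, and the open square is WT mouse 1-13M. Hspd1 is lower in every D257A mouse by a small step, Clpp, Clpx and Lonp1 overlap with 1-13M on top, and for Pmpcb that mouse lies among the D257A mice.

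The member gene that fell was Pmpcb, the catalytic subunit of the matrix processing peptidase, which cuts the presequence off imported proteins. Its brightest probe set had signals of 3116, 3608, 3712, 3055 and 2784 in D257A mice, against 5035, 3362, 5215, 5387 and 5214 in WT mice. All D257A mice were below 4 of the WT mice, while WT mouse 1-13M, at 3362, lay among them. The fold change was -0.56 (standard error 0.14, 95% interval -0.86 to -0.26, limma adjusted p = 0.027), and it was -0.69 (limma adjusted p = 5.54e-04) without that mouse. A dimmer probe set of Pmpcb gave -0.38 (limma adjusted p = 0.0606), with signals of 1655, 1607, 1818, 1861 and 1719 in D257A mice, against 2439, 1820.2, 2302, 2199 and 2536 in WT mice. There too 1-13M was the lowest WT mouse, inside the D257A range. Without that mouse the dimmer probe set was called lower as well (-0.45, limma adjusted p = 0.00649). The call of the brighter probe set ended in 11 of 22 alternatives, at an adjusted p of 0.0585 to 0.0738 when 1 of 6 mice was left out (2-17M, 2-27M and 2-30M of D257A, 1-12M, 2-3M and 2-32M of WT), though the fold change stayed between -0.71 and -0.43. Pmpca, the other subunit of the same enzyme, had signals of 6729, 6482, 5881, 5541 and 5691 in D257A mice, against 5432, 5364, 5098, 4739 and 5450.2 in WT mice. Every D257A mouse was above every WT mouse, as for 3.93% of all genes, yet the fold change of 0.22 (standard error 0.092, 95% interval 0.017 to 0.41, limma adjusted p = 0.174) did not pass, and a second probe set gave -0.11 (limma adjusted p = 0.697) with overlapping groups. That second probe set gave -0.016 without WT mouse 1-13M. Whether the subunits differ from each other was not tested.

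In the TIM23 translocase of the inner membrane 0 of 5 genes were called and 4 of 5 values were negative, with a median of -0.12. The lowest was Timm17b, an X-linked gene for a channel subunit. Its signals were 634, 853, 934, 927 and 622 in D257A mice, against 1072, 926, 1435, 1259 and 1136 in WT mice. The groups overlapped only through D257A mice 2-25M and 2-27M and WT mouse 1-13M. The fold change was -0.56 (standard error 0.16, 95% interval -0.91 to -0.21, limma adjusted p = 0.0507), just short of the threshold, and the second probe set gave -0.62 (limma adjusted p = 0.0528), with signals of 494, 626, 712, 657 and 566 in D257A mice, against 959, 654, 1209.6, 1195 and 772 in WT mice. Without WT mouse 1-13M both probe sets were called (-0.64, limma adjusted p = 0.0124, and -0.75, limma adjusted p = 0.00568). The brighter one was called in 5 of 22 alternatives in all. Among mice whose number starts with 2 (5 D257A and 2 WT mice) the fold change was -0.78 (limma adjusted p = 0.0337), while a block for that first digit gave -0.78 with no call (limma adjusted p = 0.0646). Timm17a, the other form of that subunit, had signals of 7842, 8807, 8821, 8987 and 8694 in D257A mice, against 9700.1, 8221, 9525, 8613 and 10323 in WT mice and a fold change of -0.10 (limma adjusted p = 0.533). Timm23, the channel itself, had 0.12 (limma adjusted p = 0.513), or 0.04 without WT mouse 1-13M. Timm50, the receptor that faces the intermembrane space, had -0.12, with -0.42 (limma adjusted p = 0.0556) for its second probe set. Without WT mouse 1-13M that second probe set was called (-0.43, limma adjusted p = 0.038). Timm21, which links the translocase to the respiratory chain, had -0.21.

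The motor that pulls chains through TIM23 held the largest disagreement between probe sets of 1 gene. Hspa9 encodes mitochondrial Hsp70, the engine of the motor and a chaperone of the matrix. Its brightest probe set had signals of 11327, 9732, 9563, 10414 and 9865 in D257A mice, against 9831, 10608, 9596, 9673 and 9918 in WT mice, and the fold change was 0.035 (standard error 0.081, 95% interval -0.14 to 0.21, limma adjusted p = 0.837), or 0.059 without WT mouse 1-13M. The dimmest of its 4 tested probe sets had signals of 414, 541, 437, 457 and 362 in D257A mice, against 786, 1042, 808, 913 and 659 in WT mice. There every D257A mouse was below every WT mouse, as for 3.77% of all probe sets, and the fold change was -0.92 (standard error 0.15, 95% interval -1.25 to -0.60, limma adjusted p = 0.00314). This call held under all 22 alternatives, at -1.01 to -0.79. The probe sets between them in brightness gave -0.086 (limma adjusted p = 0.594) and -0.31 (limma adjusted p = 0.15). Which transcript form the dimmest probe set reads is not annotated here, so the fall stands for that probe set and not for the gene.
Pam16, a regulator of the motor's J protein, had signals of 7321, 7455, 7070.1, 7332 and 6690.1 in D257A mice, against 5363, 5326, 6481, 5797 and 6359 in WT mice. Every D257A mouse was above every WT mouse, as for 3.93% of all genes, and the fold change was 0.29 (standard error 0.091, 95% interval 0.10 to 0.49, limma adjusted p = 0.0642). It was called higher in 6 of 22 alternatives, among them the methods' t-test on either scale, the centring on the median and the analysis without WT mouse 3-18M. Timm44, which ties Hsp70 to the channel, and Grpel1 and Grpel2, its nucleotide exchange factors, had fold changes of -0.12, -0.10 and -0.14 with overlapping groups. Without WT mouse 1-13M Grpel1 was -0.022 and Grpel2 -0.065.

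Among the small Tim chaperones, which escort hydrophobic chains across the intermembrane space, and the TIM22 complex that inserts carrier proteins, 0 of 8 genes were called and the median was -0.12, or -0.052 without WT mouse 1-13M. Timm9 held the 1 member probe set that rose. That probe set had signals of 722, 478, 649, 477 and 582 in D257A mice, against 334, 349, 341, 343 and 336 in WT mice. The WT mice lay within 334 to 349, all D257A mice were above them, as for 3.94% of all probe sets, and the fold change was 0.75 (standard error 0.14, 95% interval 0.45 to 1.06, limma adjusted p = 0.00675). The brighter probe set of Timm9, which stands for the gene in the counts, had 462, 628, 571, 455 and 512 in D257A mice, against 288, 468, 507, 345 and 499 in WT mice. There the groups overlapped and the fold change was 0.34 (standard error 0.18, 95% interval -0.039 to 0.72, limma adjusted p = 0.266). Both values are positive, and the rise in the dimmer one was 0.67 to 0.88 under all alternatives, with the call lost in 1 (a block for the first digit of each mouse's number, limma adjusted p = 0.0691). Timm10, the partner of Timm9 in its hexamer, had -0.16, but 0.052 without WT mouse 1-13M, whose signal was 7434 where the other WT mice had 3479 to 3835. Timm10b, Timm8b, Timm8a1 and Timm13 had 0.17, 0.23, -0.11 and -0.16. Timm22 and Timm29, of the carrier translocase, had -0.13 and -0.17. Without WT mouse 1-13M Timm10b was 0.26, Timm8b 0.15, Timm8a1 -0.19 and Timm22 -0.24. Second probe sets, named after their values were seen, gave -0.37 for Timm8a1 (limma adjusted p = 0.107) and -0.40 for Timm29 (limma adjusted p = 0.136). In that of Timm8a1 every D257A mouse was below every WT mouse, as for 3.77% of all probe sets.

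At the outer membrane 0 of the 6 tested TOM genes were called, and 2 passed at an unadjusted p under 0.05. Tomm40, the channel, had signals of 639, 813, 722, 979 and 649.7 in D257A mice, against 1025, 1099, 1095, 1083 and 688 in WT mice. Its paralog Tomm40l had signals of 815, 1082, 690.0, 1197 and 921 in D257A mice, against 1383, 956, 1104, 1515 and 1181 in WT mice. In both genes the groups overlapped, and these were the 2 below that p. The fold change was -0.39 (standard error 0.17, 95% interval -0.74 to -0.035, limma adjusted p = 0.169) for Tomm40 and -0.39 (standard error 0.17, 95% interval -0.76 to -0.027, limma adjusted p = 0.18) for Tomm40l. The receptors Tomm20, Tomm22 and Tomm70a had -0.13, 0.17 and 0.0093, and Tomm7, a small subunit, 0.055. Tomm70a was -0.022 and Tomm7 0.0052 without WT mouse 1-13M. Dimmer probe sets of Tomm7 gave 0.27 (limma adjusted p = 0.0972) and -0.16 (limma adjusted p = 0.552), the latter -0.27 without that mouse. In the former every D257A mouse was above every WT mouse, as for 3.94% of all probe sets. All 6 probe sets of Tomm20 were negative, from -0.32 to -0.052, with 0 called. Samm50, which inserts barrel proteins into the outer membrane, had signals of 7721, 7621, 6735, 7319 and 6474 in D257A mice, against 10069.6, 6949, 9399, 8914 and 8283 in WT mice. WT mouse 1-13M was the only WT mouse within the D257A range, and the fold change of -0.27 (limma adjusted p = 0.14) became -0.35 (0.0152) without it. Tomm34, a cytosolic cochaperone of import, had -0.27.
Timmdc1 shares the Timm symbol but builds complex I. Its signals were 359.7, 527, 480.2, 571 and 437 in D257A mice, against 636, 518, 615, 773 and 776 in WT mice, and WT mouse 1-13M again lay inside the D257A range. The fold change was -0.48 (standard error 0.16, 95% interval -0.83 to -0.14, limma adjusted p = 0.0845), and -0.57 (limma adjusted p = 0.0217) without that mouse. Phb2, of the prohibitin rings of the inner membrane, had 0.26 (limma adjusted p = 0.222). Without WT mouse 1-13M, 4 of 40 members were lower (Pmpcb, Timm17b, Timmdc1 and Samm50) and 0 higher, against 8.33% and 7.76% of all genes. For these 4 genes that mouse was the lowest WT mouse.

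Probe sets of 1 gene did not always share a sign. Of the 26 genes with more than 1 tested probe set, 12 were negative and 3 positive on all of them, and 11 had both signs. The median distance between the highest and lowest probe set was 0.21 on the log2 scale, and only Hspa9, at 0.96, was over 0.5. The 14 remaining genes, Hspd1 and Lonp1 among them, rest on 1 tested probe set. Tomm5, Tomm6, Phb and Dnajc19 were read only by 8 probe sets that name another gene too and so were not members. The Tomm5 probe set, shared with Gm8069 and named after its value was seen, had signals of 2285, 2726, 2094, 1976 and 2273 in D257A mice, against 3900.4, 3181, 3208, 2748 and 3103 in WT mice. With no overlap, as for 3.77% of all probe sets in that direction, it fell by 0.51 (limma adjusted p = 0.0228). The other 7 shared probe sets ran from -0.32 to 0.24 and 0 were called.

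**Figure D3:**
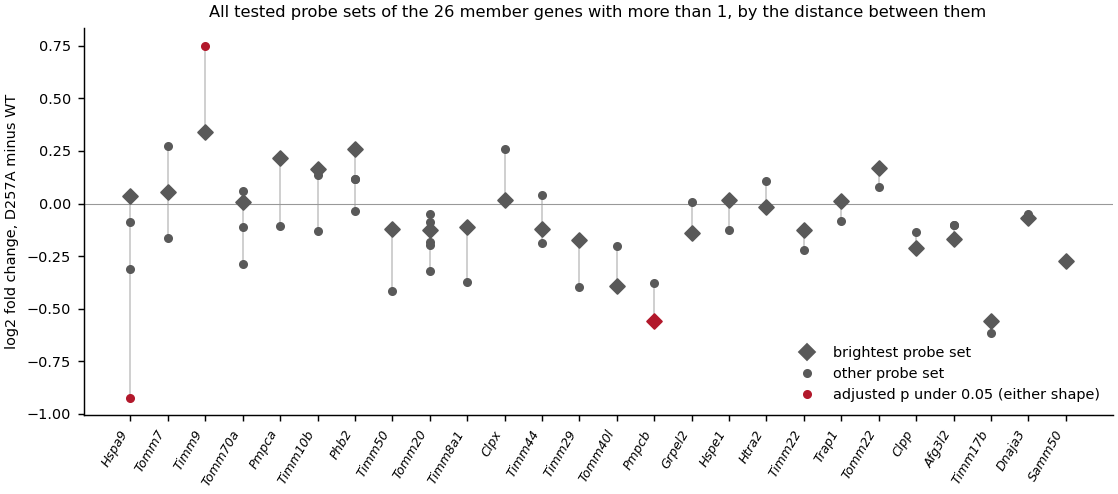
Log2 fold change of every tested probe set of the 26 member genes with more than 1, ordered by the distance between their probe sets; diamonds are the brightest probe set, which stands for the gene, and circles the others. The called probe sets are those of Hspa9 (-0.92), Timm9 (0.75) and Pmpcb (-0.56), and only in Pmpcb is it the brightest.

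The signalling side of the response was read from 20 tested genes of mitochondrial stress and the integrated stress response, of which 1 rose and 0 fell, with a median of 0.014, or 0.075 without WT mouse 1-13M. Over all genes 3.71% were called higher and 3.52% lower. At an unadjusted p under 0.05, 5 of the 20 were higher and 2 lower, against 11.1% and 11.7% of all genes. The gene that rose was Asns, asparagine synthetase, an Atf4 target. Its signals were 413, 333, 329, 364 and 349.9 in D257A mice, against 197, 167, 162, 168 and 194 in WT mice. The D257A values were all above the WT values, as for 3.93% of all genes, and the fold change of 1.01 (standard error 0.14, 95% interval 0.71 to 1.31, limma adjusted p = 0.00115) held in all 21 alternatives that tested it. Atf4 itself had signals of 12554, 12487, 12119, 12022 and 18123 in D257A mice, against 8479.5, 14274, 10295, 9055 and 7357 in WT mice. D257A mouse 2-30M was far above the others and WT mouse 1-13M, at 14274, above the other 4 D257A mice. The fold change of Atf4 was 0.46 (standard error 0.16, 95% interval 0.11 to 0.82, limma adjusted p = 0.104), and without WT mouse 1-13M it was 0.61 (limma adjusted p = 0.00558). A dimmer probe set of Atf4 gave 0.14 (limma adjusted p = 0.734), and 0.24 (limma adjusted p = 0.436) without that mouse. Of the 20 values of the list 11 were positive and 9 negative, and the further genes named here were picked after their values were seen. Pck2 had 0.99 (limma adjusted p = 0.0862), Cebpb 0.64 (limma adjusted p = 0.293) and Eif2ak4 0.58 (limma adjusted p = 0.179). These values are given for all mice only. Chac1, a target like Asns, had 0.62 (limma adjusted p = 0.0504), while Mthfd2, an enzyme of mitochondrial folate metabolism and also a target, had -0.54 (limma adjusted p = 0.158) and Sesn2, a stress-induced sestrin, -0.52 (limma adjusted p = 0.199). Without WT mouse 1-13M Chac1 (0.53, limma adjusted p = 0.0475) was called higher and Mthfd2 (-0.67, limma adjusted p = 0.0443) lower. Atf5 and Ddit3, the factors tied most closely to the mitochondrial response, had 0.00061 (limma adjusted p = 0.999) and -0.24 (limma adjusted p = 0.471), or 0.064 and -0.37 without WT mouse 1-13M. Fgf21, a hormone that muscle releases under mitochondrial stress, was under the filter for dim probe sets. Oma1 and Yme1l1, inner membrane proteases that relay stress and trim import subunits, had -0.13 and -0.17 on their brightest probe sets, but the dimmer tested probe sets of Yme1l1 gave -0.0081 (limma adjusted p = 0.985) and 0.37 (limma adjusted p = 0.143). The first of these was 0.12 without WT mouse 1-13M. The list of 8 further mitochondrial proteases that holds Oma1 and Yme1l1 had a median of -0.12 with 0 called by limma or by the methods' t-test. At an unadjusted p under 0.05, 1 of the 8 was lower, against 11.7% of all genes.

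Of 18 further genes of import, assembly and presequence processing, 2 fell and 1 rose (16.7%, against 7.23% of all genes). Their median was 0.026, which turned to -0.057 without WT mouse 1-13M. Mtx2, an outer membrane partner of Samm50, had signals of 1579, 1706, 1863, 1801 and 1641 in D257A mice, against 2825, 1972, 2453, 2314 and 3050.0 in WT mice. It fell by 0.54 (limma adjusted p = 0.0209) with no overlap, as for 3.47% of all genes in that direction. Chchd4, the receptor of the disulfide relay that imports the small Tims, had signals of 1119, 1529, 1313, 1502 and 1438 in D257A mice, against 1772, 1783, 1915, 1833 and 1782 in WT mice. It fell by 0.41 (limma adjusted p = 0.044), a call lost in 16 of 22 alternatives. Immp1l, an inner membrane peptidase, rose by 0.38 (limma adjusted p = 0.0385), a call lost in 14 of 22.

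Chaperones outside mitochondria are given for comparison. Over all genes tested 7.23% were called, 3.71% higher and 3.52% lower. In the cytosol 4 of 20 fell and 1 rose (25% called), with a median of -0.25, or -0.10 without WT mouse 1-13M. Hsph1, a large Hsp70 relative induced by heat shock, averaged 1827 ± 242 over D257A mice and 2987 ± 341 over WT mice (SD, n = 5 for both) and fell by 0.71 (limma adjusted p = 0.00429). The small heat shock protein Cryab and the J protein Dnajb4 fell by 0.46 and 0.60, and Tcp1, of the cytosolic chaperonin, rose by 0.29. In the endoplasmic reticulum 1 of 16 fell (Hyou1, by 0.65), or 6.25%, and the median was -0.069, or -0.035 without that mouse. A list of 99 genes of the respiratory chain and ATP synthase was taken by symbol (starting Nduf, Sdh, Uqcr, Cox or Atp5) and includes assembly factors. Of these genes 12 fell (12.1%), all of them subunits, and 0 rose, with a median of -0.14. Of 76 mitochondrial ribosomal proteins 5 fell (6.58%) and 0 rose, with a median of -0.068. The 22 members named Timm or Tomm had a median of -0.12 with 0 called, and the other 18 had -0.041 (-0.0024 without WT mouse 1-13M) with 1 called. Differences between these lists were not tested.

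**Figure D4:**
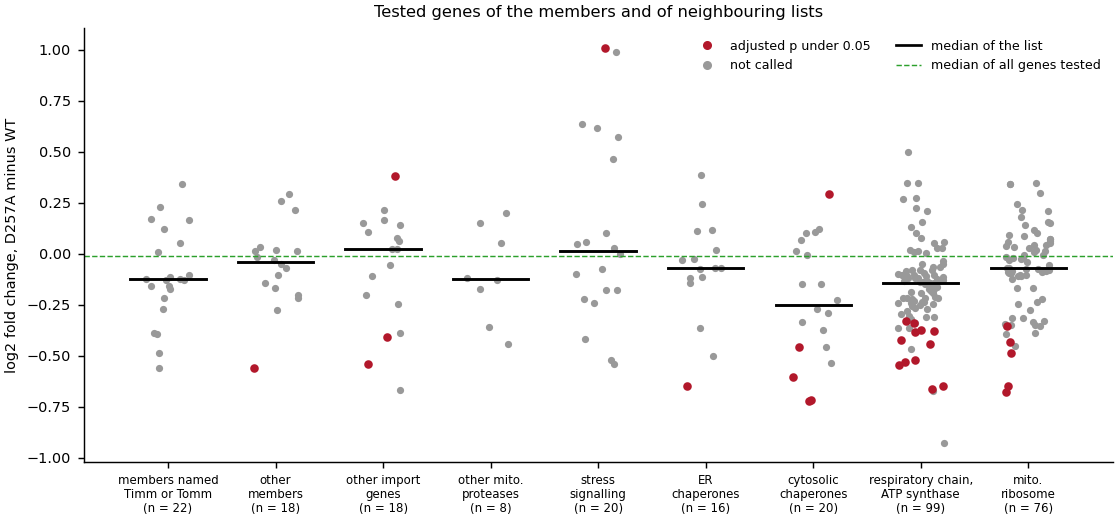
Log2 fold change, D257A minus WT, of each tested gene (points) of the members, split by symbol, and of 7 neighbouring lists; red points have an adjusted p under 0.05, black bars are the median of each list and the dashed line is the median of all 11215 genes tested, -0.0098. Members hold 1 called point of 40, cytosolic chaperones 5 of 20 and respiratory chain and ATP synthase genes, assembly factors included, 12 of 99. Of all genes tested 7.23% were called.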

How the data were processed

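Gene expression was measured in gastrocnemius of 5 D257A and 5 WT mice on Affymetrix mouse genome arrays of 45101 probe sets, 1 array per mouse. The deposited intensity values are linear, 1 for each probe set in each mouse, and were made by the authors with GCOS 1.3 per the labels; which signal algorithm was used is not given in the sources used. A stated target of 500 is not met by the deposited columns, so each array was multiplied to bring its trimmed mean (2% left out at each end) to 500, and log2 was taken.

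The 64 control probe sets were set aside. Of the other 45037, those brighter on average than the median (22518) entered limma 3.58.1 under R 4.3.3 (lmFit and trended eBayes without covariates), with Benjamini-Hochberg adjustment over all of them and a threshold of 0.05. Each gene was read by the brightest of the probe sets that name no other gene in the platform annotation, in which 34958 probe sets have 1 symbol, 932 have several and 9211 are not listed. The members, role groups and lists were chosen with earlier results of these data known. Full values were given for members with a called probe set, for 8 genes of the mitochondrial unfolded protein response and for the 4 other members, tested or under the filter, with the largest fold changes (Timm8a2, Timm17b, Timmdc1 and Tomm20l), while Pmpca, Pam16, Samm50, Timm17a, Tomm40 and Tomm40l were added after their values were seen; of each further list up to 4 called genes were named, with Atf4, Atf5, Ddit3, Chchd4, Oma1 and Yme1l1 in any case.

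The alternatives were other scalings (none, median centring, quantile), filters (none, the brightest probe sets alone), an offset of 32, no variance trend, array weights, the mean of all probe sets of a gene, the methods' equal-variance t-test on linear and log2 signals, the first digit of each mouse's number (its meaning is not stated) as a block or mice numbered 2 alone, and each mouse left out. The fit was tested on simulated data with known changes of a smaller and a larger size, 100 of each. There limma recovered 21% of the smaller and 62% of the larger changes, with 7 false calls. The smaller size was close to the largest fold changes of tested member genes. In the measured arrays 1662 of 22518 probe sets were called, more than the 100 of each size that were changed there. The adjustment depends on how many probe sets change, so the recovered shares need not hold for member genes. What share of true changes of that size would be called among member genes was not tested. Beyond genotype, tissue and age, the labels tell single mice apart by their numbers only, and the number of mice limits the precision. Python 3.11.15, pandas 2.3.3, SciPy 1.17.1 and matplotlib 3.10.9 were used. Mice of other ages and measurements other than arrays were not analysed here.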

Additional observations from a re-analysis of the deposited data

Results flagged for a closer look

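The signals of named genes were examined for a mouse far from the other 4 of its genotype, over 56 groups of 5 mice, of which chance alone picks about 1 in 20 groups. WT mouse 1-13M had a Pmpcb signal of 3362, where the nearest WT mouse had 5035. WT mouse 3-18M had a Trap1 signal of 3102, where the nearest WT mouse had 3973. D257A mouse 2-30M had an Atf4 signal of 18123, where the nearest D257A mouse had 12554.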

How the results depend on the processing

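The fold changes of the called members kept their direction under all alternatives run. The median of the member genes was 0.025 with arrays centred on the median and -0.18 without scaling, and -0.12 to -0.063 with single mice left out, the value nearest to 0 without WT mouse 1-13M. Member genes called higher numbered 2 with median centring and 1 with averaged probe sets, array weights, the brightest probe sets alone or either t-test, and 0 to 1 with single mice left out (1 without WT mouse 3-18M). Member genes called lower numbered 5 with array weights, 3 with averaged probe sets, 2 for the brightest alone, mice numbered 2 alone or the offset, 0 with median centring, the first digit as a block or no variance trend, and 0 to 4 with single mice left out (4 without WT mouse 1-13M). Member probe sets called higher numbered 4 with median centring, 3 with array weights or either t-test, 2 for the brightest alone, 0 with the block and 1 to 2 with single mice left out. Member probe sets called lower numbered 11 with array weights, 6 for the brightest alone, 4 for mice numbered 2, 1 with median centring or no variance trend, and 1 to 10 with single mice left out. The share called over all features moved with the setting too. Of all probe sets 7.38% were called in the main fit, 15.2% without WT mouse 1-13M and 2.5% with the block. Of all genes these shares were 7.23%, 16.1% and 2.5%. Such shares are not given here for the other settings, so the member counts there have no such comparison. In each case the cause was not tested.

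Genes whose fold change was near 0 changed sign. With median centring Dnaja3 was 0.065, Lonp1 0.083 and Oma1 0.0068. Without scaling Atf5 was -0.074, Clpx -0.060, Hspa9 (brightest probe set) -0.039, Hspe1 -0.057 and Trap1 -0.061. With quantile normalization Clpx was -0.030, Hspa9 -0.017, Hspe1 -0.028 and Trap1 -0.025. With array weights Atf5 was -0.062 and Trap1 -0.020, with the offset Atf5 was -3.90e-04, and Trap1 was -0.065 with the block and among mice numbered 2. With single mice left out Atf5 ran from -0.16 to 0.12, Clpx from -0.061 to 0.13, Hspa9 from -0.0045 to 0.059, Hspe1 from -0.035 to 0.071, Lonp1 from -0.15 to 0.031 and Trap1 from -0.070 to 0.056. No paired analysis was possible because the genotypes share no mouse numbers. The number of arrays, 5 per genotype, limits the precision of changes of the size seen here.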
